A study of Mus musculus with 4 samples.

Results

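Amphiregulin (Areg) and 5 further genes of the epidermal growth factor (EGF) receptor system were followed through single-cell RNA-Seq of the small intestinal lamina propria (SILP), the connective tissue beneath the gut epithelium. The members were the ligand genes Areg, Hbegf and Nrg1 and the receptor genes Egfr, Erbb2 and Erbb3. They were selected on differences seen in these same libraries and matched by gene ID, which gave 6 members among 31950 gene IDs shared by both gene lists, so their levels are a description and carry no test. The study compared 12-week-old wild-type (WT) mice with A20ZF7 mice, a knock-in with point mutations in a ubiquitin-binding zinc finger (ZF7) of A20, a restrainer of inflammatory signalling. No treatment, strain or further allele was named for either library. SILP cells of 2 mice per genotype were tagged per mouse with hashtag antibodies, depleted of cells other than T cells and innate lymphoid cells (ILCs) by negative selection, and pooled, with 60000 cells collected per genotype for the 10x Genomics 5′ kit. Each genotype was thus 1 library, no spread between A20ZF7 mice could be had, and gene counts cannot show the point mutations.

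EGF family ligands are made as membrane-bound precursors and are released by sheddases such as ADAM17. Areg and Hbegf bind the EGF receptor (Egfr), Hbegf also binds Erbb4, and Nrg1 binds Erbb3 and Erbb4. Erbb2 has no ligand of its own and pairs with the other receptors, while Erbb3 signals mainly through its partner. In the gut, Areg from ILC2s, regulatory T cells (Tregs) and epithelium is known for its part in tissue repair, and neuregulins and Ereg from mesenchymal cells act on the crypt epithelium.

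Stretches of 250 bases are shown for the pair on which the data centre, the ligand Areg and its receptor Egfr. They are the bases just upstream of each gene's start in the RefSeq annotation of mouse build GRCm38.p6, both on the plus strand, at chr5:91139349-91139598 for Areg and chr11:16751953-16752202 for Egfr, with capitals for matches to the motifs searched other than the short form TGACG.
Areg: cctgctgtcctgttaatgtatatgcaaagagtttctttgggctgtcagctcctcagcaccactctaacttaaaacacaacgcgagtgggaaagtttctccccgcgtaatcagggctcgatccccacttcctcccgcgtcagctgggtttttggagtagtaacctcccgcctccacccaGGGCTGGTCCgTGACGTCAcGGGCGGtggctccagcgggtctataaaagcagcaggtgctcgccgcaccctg
Egfr: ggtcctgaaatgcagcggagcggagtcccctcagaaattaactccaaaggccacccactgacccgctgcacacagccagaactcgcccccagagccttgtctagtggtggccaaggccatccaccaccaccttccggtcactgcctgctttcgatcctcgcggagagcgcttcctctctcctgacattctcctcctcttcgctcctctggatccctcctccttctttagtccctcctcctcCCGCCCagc
On both strands of the Areg sequence, the cAMP response element TGACGTCA lay at −61 to −54 from the start. Windows with this motif made up 1.55% of 32851 promoters of the same length. A match to a loose NF-kB pattern (GGG and CC with 5 free bases between them), found in 45.8% of promoters, lay beside it at −72 to −63, and the GC box GGGCGG, found in 32.7%, at −52 to −47. The short form TGACG, which overlaps the cAMP response element and occurs in 17.8% of promoters, had a further match at −115 to −111. The AP-1 motif TGANTCA, in 6.75% of promoters, had no match in either sequence. The Egfr sequence held only a GC box, on the minus strand at −9 to −4. A match describes letters and shows no bound factor. The RefSeq table held 3 of the 6 members, Areg, Egfr and Erbb2.

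The members lie on 5 chromosomes of GRCm38. Areg is at chromosome 5, 91139599 to 91148432, on the plus strand, and the family genes Ereg, Epgn and Btc start or end 65.0, 112 and 218 kb away, so that 4 ligand genes sit in 1 cluster. Hbegf is at chromosome 18, 36504927 to 36515805 (minus strand), and Nrg1 at chromosome 8, 31814551 to 32884029 (minus strand). Egfr is at chromosome 11, 16752203 to 16918158 (plus strand), Erbb2 at chromosome 11, 98412470 to 98437716 (plus strand), and Erbb3 at chromosome 10, 128567523 to 128589652 (minus strand).

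After filtering, 14753 WT and 43218 A20ZF7 cells were kept, with medians of 1059 and 853 unique molecular identifiers (UMIs) per cell, and 913 cell barcodes occurred in both libraries. Of 27 clusters, 4 stayed unnamed, among them the dividing cluster 8 led by Pclaf, Stmn1 and Top2a. The named classes were T cell-like (2218 WT and 13782 A20ZF7 cells), innate lymphoid-like (3014 and 5463), stromal (7773 and 15767), epithelial-like (586 and 334), myeloid-like (356 and 1748), plasma-like (459 and 1765) and mast-like (4 and 37). The 5 T cell marker genes summed to 2815 UMIs per 1000000 UMIs of the class (CPM) in WT and 2755 in A20ZF7 T cell-like cells. In stromal cells the same list summed to 329 and 997, in plasma-like cells to 170 and 882, and in epithelial-like cells to 164 and 1447, so T cell RNA was found outside T cells in both libraries and more of it in A20ZF7. Levels are in CPM with 95% exact Poisson intervals, shares carry exact binomial intervals, and ratios are A20ZF7 over WT with exact conditional intervals. All of these intervals cover counting error only, and the 2 libraries were compared, not replicated conditions.

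Areg was the member with the highest ratio, and its ranking across cells changed between the libraries. Over 14 groups of cells that do not overlap, the interval of its ratio lay above 1 in 13 and below 1 in 1, the epithelial-like cells, and the median ratio was 5.54. In WT, epithelial-like cells had the highest level at 798 CPM. ILC2-like cells followed at 368 and Treg-like cells at 361, a pair whose intervals overlap, and ILC3-like cells came next at 114. The other 10 WT groups lay between 7.97 CPM in plasma-like and 70.7 in macrophage or monocyte-like cells, each overlapping its neighbour in the order. In A20ZF7, ILC2-like cells led at 1070 CPM, Treg-like cells followed at 950 and epithelial-like cells at 640, each apart from the next. The other 11 A20ZF7 groups ran from 391 CPM in Th17-like to 235 in plasma-like cells in 1 chain of overlapping neighbours.

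**Figure D1:**
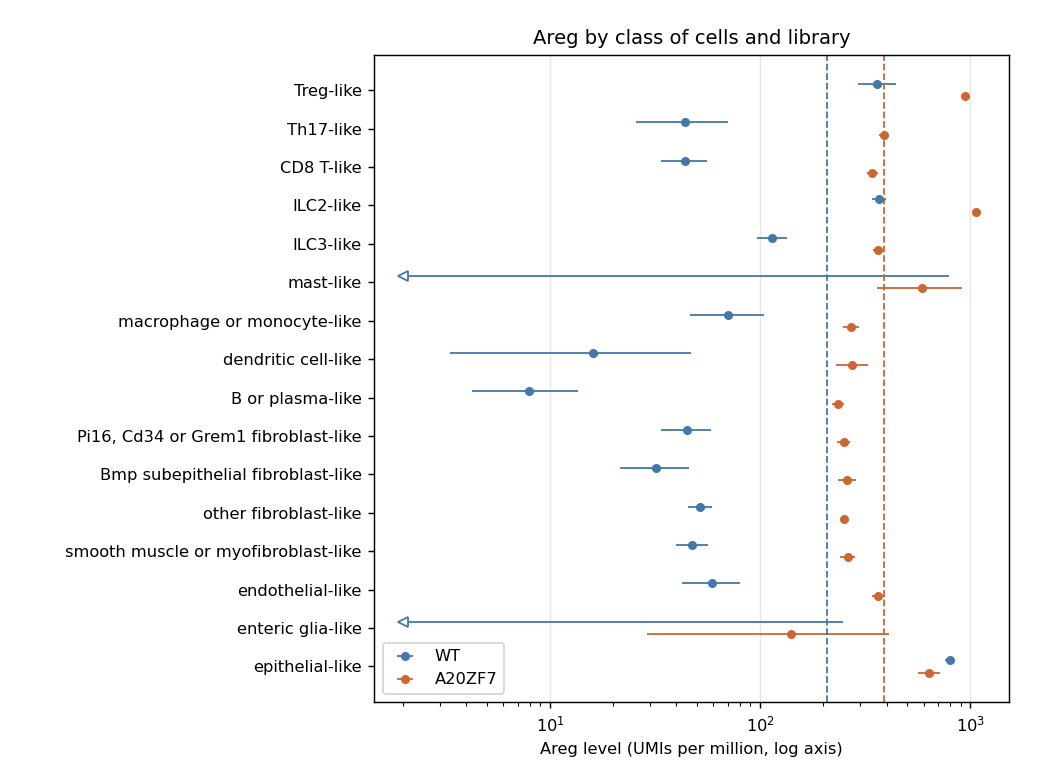
Areg level (CPM, log axis) in each group of cells in WT (blue) and A20ZF7 (orange), with 95% exact Poisson intervals; open triangles mark groups with 0 UMIs, and dashed lines give the level in barcodes with 1 to 50 UMIs (209 in WT, 391 in A20ZF7). A20ZF7 points lie to the right of WT points in every group with a WT UMI except the epithelial-like cells, and ILC2-like and Treg-like cells stand apart from the column of A20ZF7 values near 250.

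T cell-like cells held 82.7 CPM of Areg in WT (174 UMIs) and 603 in A20ZF7 (6314 UMIs), a ratio of 7.29 (interval 6.27 to 8.52). Of 6030 genes tested, 3.68% had a ratio of at least 2 or at most 0.5, and 7 genes, Areg included, reached the ratio of Areg. Areg was the only member abundant enough to be tested there, and it was past 2-fold. The WT value did not rest on 1 mouse: cells assigned by hashtag gave 76.9 CPM in WT mouse 1 and 68.1 in WT mouse 2.

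Treg-like cells, which restrain immune responses and are marked by Foxp3, had the highest Areg level among T cells in both libraries. They held 361 CPM in WT (interval 291 to 442) and 950 in A20ZF7 (921 to 980), a ratio of 2.63 (2.14 to 3.27), while 3.69% of 3929 genes tested in them were past 2-fold and 32 reached the ratio of Areg. WT mouse 1 gave 362 CPM and WT mouse 2 gave 289, both below A20ZF7. Th17-like cells, which make IL-17, went from 43.9 CPM in WT to 391 in A20ZF7, a ratio of 8.90 (5.53 to 15.3). WT mice 1 and 2 gave 16.1 CPM (2 UMIs) and 41.6 (7 UMIs), and the ratio was 9.39 without mouse 1 and 24.3 without mouse 2. CD8 T-like cells went from 43.9 to 342, a ratio of 7.80 (6.06 to 10.2). The ratios of Th17-like and CD8 T-like cells thus exceeded that of Treg-like cells although their A20ZF7 levels were lower, and their WT levels lay near the 48.5 CPM of WT stromal cells. Barcodes with 1 to 50 UMIs, which hold free RNA, had 209 CPM of Areg in WT and 391 in A20ZF7. Neither Th17-like nor CD8 T-like cells lay above these levels in either library. Such levels give the make-up of free RNA and not the amount of it held by a cell. With free RNA scaled by the fibroblast gene Dcn taken off, T cell-like cells as a whole kept 68.2 CPM in WT and 575 in A20ZF7. The part of free RNA in Th17-like and CD8 T-like cells alone was not tested. The 5 Treg marker genes summed to 979 CPM in WT and 1776 in A20ZF7 Th17-like cells and to 792 and 1385 in CD8 T-like cells, and their part in these ratios was not tested.

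Treg-like cells made up 255 of the 2218 WT and 4815 of the 13782 A20ZF7 T cell-like cells, which enters the summed value. With the 3 T cell-like groups weighted equally the ratio was 3.75, and with the dividing cluster counted as T cell-like it was 5.27. The dividing cluster itself held 270 CPM of Areg in WT and 497 in A20ZF7, a ratio of 1.84 (1.49 to 2.29). T cell-like cells with an Areg UMI made up 3.70% in WT and 21.6% in A20ZF7 at median depths of 821.5 and 634 UMIs. Plasma-like cells, which are not known as a source of Areg, showed 2.18% and 21.4% at 3430 and 1520 UMIs. Thinned to 500 UMIs per cell, the T cell-like shares were 2.52% and 17.6% (0 and 3731 cells were too shallow and left out), against 0.654% and 8.90% in plasma-like cells (0 and 68 left out). Treg-like cells stood further out, with 9.41% in WT and 26.3% in A20ZF7 (0 and 721 left out), from 13.3% and 35.5% before thinning.

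Innate lymphoid-like cells held 266 CPM of Areg in WT and 688 in A20ZF7, a ratio of 2.59 (2.40 to 2.80). Here 3.63% of 6255 genes tested were past 2-fold and 64 had a ratio at or above that of Areg. ILC2-like cells, the type 2 ILCs that make IL-13, had 368 CPM in WT (341 to 396) and 1070 in A20ZF7 (1027 to 1114), a ratio of 2.91 (2.67 to 3.17), among 5.32% of 6048 genes past 2-fold. WT mice 1 and 2 gave 430 and 360 CPM in these cells. ILC3-like cells, the RORγt-dependent ILCs, had 114 and 366 CPM, a ratio of 3.22 (2.70 to 3.85), and the WT mice gave 171 and 131. The ILC3-like levels lay below those of barcodes with 1 to 50 UMIs, 209 CPM in WT and 391 in A20ZF7. With free RNA scaled by Dcn taken off, innate lymphoid-like cells as a whole kept 251 CPM in WT and 661 in A20ZF7. The part of free RNA in ILC3-like cells alone was not tested. Both ILC groups were higher in A20ZF7 than in either WT mouse. Beside this, the T cell list summed to 791 CPM in WT and 1427 in A20ZF7 ILC2-like cells, the Treg list to 747 and 1386, and the ILC2 list to 2928 and 2089. In ILC3-like cells the T cell list summed to 1209 and 1523 and the Treg list to 1016 and 1480, and the part of these in the Areg ratios was not tested. The share of ILC2-like cells with an Areg UMI was 18.2% in WT and 42.7% in A20ZF7, and 12.0% and 30% after thinning (0 and 231 cells left out). For ILC3-like cells it was 5.48% and 16.4%, and 3.70% and 12.5% after thinning (0 and 713 left out).

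Areg UMIs were also more frequent in A20ZF7 in stromal, myeloid-like and plasma-like cells. Stromal cells had 48.5 CPM in WT and 266 in A20ZF7, a ratio of 5.48 (5.0 to 6.03), with 7.08% of 7372 genes tested past 2-fold and 19 at or above the ratio of Areg. WT mice 1 and 2 gave 84.2 and 67.6 CPM, both above the level over all WT stromal cells, and the ratio was 3.94 without mouse 1 and 3.16 without mouse 2. Myeloid-like cells had 52.4 and 272 CPM, a ratio of 5.19 (3.58 to 7.82). Plasma-like cells had 7.97 and 235 CPM, the highest ratio of any group at 29.5 (17.1 to 55.6), with 13 UMIs in WT. WT mouse 1 gave 7.04 CPM and mouse 2 gave 16.9, and the ratio was 13.9 without mouse 1 and 33.4 without mouse 2. The A20ZF7 levels of 4 fibroblast-like and smooth muscle groups lay between 250 and 261 CPM, close to each other. Barcodes with 1 to 50 UMIs, which hold free RNA rather than cells, had 209 CPM of Areg in WT and 391 in A20ZF7, a ratio of 1.87 (1.59 to 2.20).

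T cell RNA moved with these values. Stromal cells without a UMI of the 5 T cell marker genes had 41.8 CPM of Areg in WT and 151 in A20ZF7, and those with at least 1 such UMI had 67.8 and 345. In plasma-like cells the values were 6.23 and 131 without a T cell UMI and 11.8 and 286 with one. A20ZF7 cells with a T cell UMI thus had the higher Areg level in both classes, and such cells made up 47.2% of stromal cells in A20ZF7 against 20% in WT. Among cells without a T cell UMI the ratio was 3.62 (3.20 to 4.12) in stromal and 21.0 (9.92 to 53.1) in plasma-like cells. Cells with and without such a UMI were not matched for depth, and 0 UMIs of 5 genes does not show that a cell lacks T cell RNA. The part of free RNA and of mixed barcodes in these values was not tested. With the stromal level of each library taken off, the Areg ratio was 9.85 in T cell-like and 1.94 in innate lymphoid-like cells. Fibroblast-like clusters were unequal too, since cluster 0 (500 WT and 5343 A20ZF7 cells) had an Areg ratio of 1.59 and cluster 6 (1036 and 2751 cells) of 7.04. Cluster 9 (2165 and 98 cells) had a ratio of 2.69 (1.19 to 5.35), from 9 A20ZF7 UMIs. The part of the unequal mix of clusters in the stromal ratio was not tested.

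**Figure D2:**
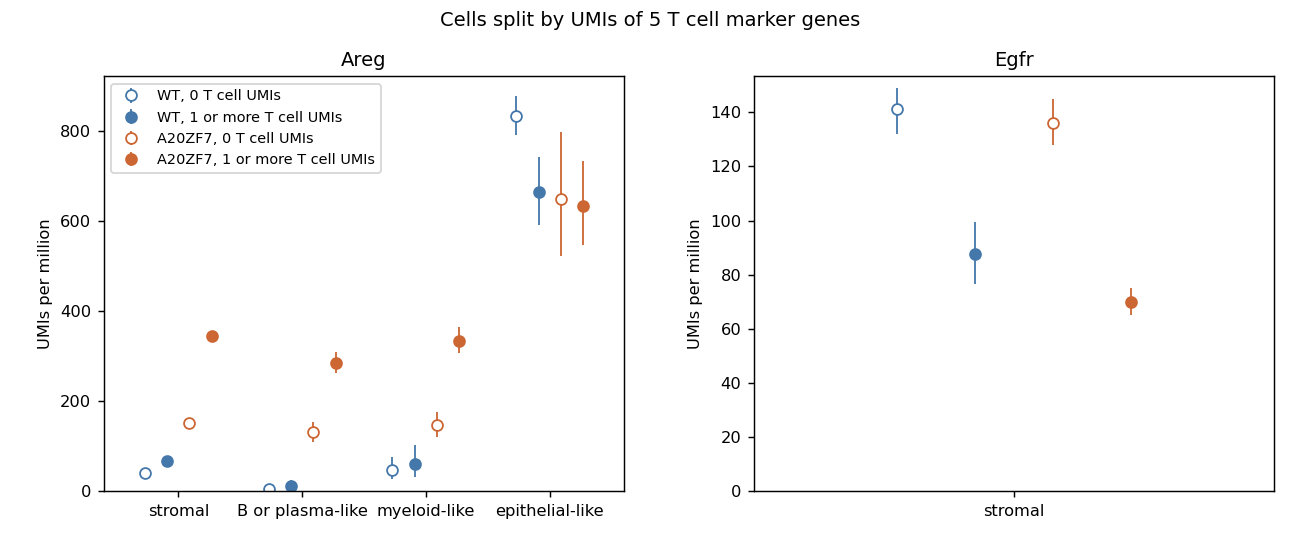
Level (CPM) of Areg in 4 classes and of Egfr in stromal cells, split by whether a cell held 0 UMIs (open) or at least 1 UMI (filled) of 5 T cell marker genes, in WT (blue) and A20ZF7 (orange), with 95% exact Poisson intervals. A20ZF7 stromal, plasma-like and myeloid-like cells with T cell UMIs have more Areg than those without, and stromal Egfr is nearly equal between libraries among cells without T cell UMIs (141 and 136). Epithelial-like cells do not follow this for Areg, with 650 CPM without and 635 with T cell UMIs in A20ZF7, and 834 and 664 in WT.

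Epithelial-like cells were the exception for Areg. They held 798 CPM in WT and 640 in A20ZF7, a ratio of 0.802 (0.703 to 0.911), while 43.6% of 5933 genes tested in this class were past 2-fold and 4152 had a ratio at or above that of Areg. Different clusters made up the class in the 2 libraries. Cluster 18, led by the enterocyte genes Fabp1 and Apoa1, held 497 WT and 79 A20ZF7 cells, and cluster 23, led by Sprr2a3, held 89 and 255. In cluster 18 Areg was 834 CPM in WT and 660 in A20ZF7, a ratio of 0.791 (0.653 to 0.951). In cluster 23 it was 59.0 and 624, a ratio of 10.6 (4.75 to 29.3) that rests on 6 WT UMIs, and the T cell marker list was higher in this class in A20ZF7, as given above. WT mice 1 and 2 had 751 and 668 CPM in epithelial-like cells, and the ratio was 0.957 (0.801 to 1.15) without mouse 1 and 0.852 (0.719 to 1.01) without mouse 2, both with an interval that holds 1.

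In mast-like cells, marked by Mcpt1, Cpa3 and Fcer1a, no Areg UMI was found among 4654 WT UMIs of 4 cells, which allows up to 645 CPM. In 37 A20ZF7 cells 20 Areg UMIs gave 593 CPM (362 to 916), so no difference was detectable at this depth. When cells were classed by their marker UMIs instead of by clusters, 19 WT and 107 A20ZF7 mast cells were found and the A20ZF7 level was at least 4.07-fold higher, with 0 Areg UMIs in WT. In the 4 and 37 mast-like cells from clusters, the T cell list summed to 0 CPM in WT and 920 in A20ZF7. The fibroblast list summed to 0 and 356 there, and the mast cell list to 60593 and 23823. The part of these in the Areg values was not tested. Hbegf, Egfr, Erbb2 and Erbb3 had 0 UMIs in mast-like cells of both libraries, and Nrg1 had 1 UMI, in A20ZF7.

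The cells that held Areg UMIs differed accordingly. Of 3292 WT Areg UMIs in named cells, epithelial-like cells held 52.6%, innate lymphoid-like cells 25.9%, stromal cells 14.9% and T cell-like cells 5.29%. Of 16347 A20ZF7 Areg UMIs, T cell-like cells held 38.6% (37.9 to 39.4), with Treg-like cells alone at 24.7%, stromal cells 30.5%, innate lymphoid-like cells 20.5% and epithelial-like cells 1.68%. These shares follow the number and depth of the cells captured in each class as well as the level per cell. Unnamed cells, left out of the shares, held a further 108 Areg UMIs in WT and 2823 in A20ZF7. The dividing cluster 8 had 91 and 2130 of these, and cluster 15, led by Defa24, had 7 and 381. Among cells with at least 1000 UMIs, T cell-like cells held 24.6% of the A20ZF7 Areg UMIs.

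Hbegf, heparin-binding EGF-like growth factor, differed mostly in the direction opposite to Areg, although both were lower in A20ZF7 epithelial-like cells. Over the 13 groups with a ratio, its interval lay below 1 in 9 and above 1 in 0, with a median of 0.516. Of these 9, 2 lay above 1 against a single WT mouse, Pi16, Cd34 or Grem1 fibroblast-like cells at 1.13 without mouse 2 (2 WT UMIs) and endothelial-like cells at 1.31 without mouse 1 (4 WT UMIs). Treg-like cells, also among the 9, had 0 Hbegf UMIs in WT mouse 1 and 7 in mouse 2. Without mouse 2 they thus gave no ratio. Epithelial-like cells had the highest level, with 401 CPM in WT and 184 in A20ZF7, a ratio of 0.460 (0.361 to 0.580). Within cluster 18, however, the values were 420 and 416, a ratio of 0.991 (0.774 to 1.25), and in cluster 23 there were 0 UMIs in WT and 2 in A20ZF7. WT mice 1 and 2 had 374 and 341 CPM.

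ILC3-like cells came next for Hbegf and stood apart from the groups below them among the 14 in both libraries. Enteric glia-like cells, outside the 14, had only 2 and 1 UMIs of Hbegf, with intervals too wide to place them. The ILC3-like cells had 187 CPM in WT (164 to 212) and 66.3 in A20ZF7 (56.8 to 76.8), a ratio of 0.355 (0.291 to 0.433). WT mouse 1 gave 162 CPM and WT mouse 2 gave 174, both above A20ZF7. Hbegf UMIs were found in 12.7% of WT and 4.91% of A20ZF7 ILC3-like cells, 7.79% and 3.06% after thinning, against 0.218% and 0.354% of thinned plasma-like cells. ILC2-like cells had 20.3 and 12.2 CPM, so within the innate lymphoid-like class, at 87.3 and 41.5 CPM (ratio 0.476, interval 0.395 to 0.573), Hbegf was mainly in ILC3-like cells.

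Smooth muscle or myofibroblast-like cells had 53.4 CPM of Hbegf in WT and 27.6 in A20ZF7, a ratio of 0.517 (0.377 to 0.702). Stromal cells as a whole had 25.7 and 12.2, a ratio of 0.474 (0.396 to 0.569), and macrophage or monocyte-like cells 57.1 and 22.0, a ratio of 0.386 (0.223 to 0.687). T cell-like cells had 27.1 and 10.8, a ratio of 0.398 (0.287 to 0.558). The T cell value rests in part on 1 WT mouse, with 14.3 CPM in mouse 1 and 34.1 in mouse 2, and without WT mouse 2 the ratio was 0.752. Free RNA carried Hbegf at 38.8 CPM in WT and 17.8 in A20ZF7, a ratio of 0.459 (0.236 to 0.835) close to that of the cells. With free RNA scaled by Dcn taken off, T cell-like cells kept 24.4 CPM of Hbegf in WT and 9.54 in A20ZF7. The part of free RNA in the Hbegf values of the other classes was not tested.

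Nrg1, neuregulin 1, was a stromal gene. Stromal cells held 93.8% of 390 WT and 82.1% of 944 A20ZF7 Nrg1 UMIs in named cells. Among the named groups the highest levels were in Bmp subepithelial fibroblast-like cells, the Pdgfra-high layer beneath the epithelium, at 53.4 CPM in WT and 82.4 in A20ZF7, a ratio of 1.54 (1.11 to 2.18). The ratio was 2.23 without WT mouse 1 and 2.43 without WT mouse 2, on 7 WT UMIs each. Other fibroblast-like cells had 45.4 and 57.9, a ratio of 1.28 (1.09 to 1.50). In WT these groups did not differ beyond their intervals, and in A20ZF7 they did. The unnamed cluster 21 (108 WT and 335 A20ZF7 cells, led by Sntg1 and Adgrl3) lay higher than any named group, with 249 CPM in WT and 266 in A20ZF7.

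Within the other fibroblast-like cells, Nrg1 lay mainly in cluster 6, led by Mmp10 and Saa3, where its 136 CPM in WT and 134 in A20ZF7 gave a ratio of 0.987 (0.830 to 1.18). Clusters 0 and 9, each mostly of 1 library (cluster 9 held 2165 WT and 98 A20ZF7 cells), had 10.7 and 6.61 CPM in WT. In A20ZF7 they had 13.8 and 48.7 CPM. The ratios were 1.29 (0.597 to 3.30) in cluster 0 and 7.37 (2.13 to 20.8) in cluster 9, the latter from 5 A20ZF7 UMIs. Smooth muscle or myofibroblast-like cells differed the other way, with 35.3 CPM in WT and 24.9 in A20ZF7, a ratio of 0.704 (0.496 to 0.99). Most of these UMIs lay in cluster 17, led by Hhip and Actg2, where the values were 113 and 55.2, a ratio of 0.491 (0.315 to 0.749). Over all stromal cells the level was 36.1 CPM in WT and 41.3 in A20ZF7, a ratio of 1.14 (1.01 to 1.30). This direction was not stable, since the ratio was 0.957 when cells were classed by marker UMIs and 0.843 with free RNA taken off. Free RNA itself had 15.6 and 56.0 CPM of Nrg1, a ratio of 3.58 (2.11 to 6.21).

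The remaining ligand genes were mostly stromal or near 0. Ereg, epiregulin, had 113 CPM in WT and 124 in A20ZF7 stromal cells, a ratio of 1.09 (1.02 to 1.17), and 1.43 and 2.01 CPM in T cell-like cells. Its neighbour Areg thus had a T cell ratio of 7.29 where Ereg had 3 WT UMIs. Btc, betacellulin, had 15 and 21.3 CPM in stromal cells, a ratio of 1.42 (1.17 to 1.72). Nrg2 was highest in plasma-like cells at 42.9 and 38.6 CPM, a ratio of 0.898 (0.665 to 1.22). Egf, Tgfa, Epgn, Nrg3 and Nrg4 were too low to be tested in T cell-like, innate lymphoid-like, stromal and epithelial-like cells.

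Egfr, the receptor of Areg and Hbegf, was found chiefly in fibroblasts. Stromal cells held 94.6% of 1361 WT and 91.5% of 1988 A20ZF7 Egfr UMIs. Pi16, Cd34 or Grem1 fibroblast-like cells, a perivascular and trophic type, had the highest level of the named groups at 234 CPM in WT (208 to 263) and 140 in A20ZF7 (128 to 154), a ratio of 0.598 (0.515 to 0.696). WT mice 1 and 2 gave 219 and 217 in these cells. The unnamed cluster 21 had more, 570 CPM in WT (439 to 728) and 248 in A20ZF7 (193 to 314). Other fibroblast-like cells had 164 and 111 CPM, a ratio of 0.676 (0.615 to 0.743), and Bmp subepithelial fibroblast-like cells 145 and 98.3, a ratio of 0.677 (0.535 to 0.857). All 3 fibroblast-like groups thus had less Egfr in A20ZF7 than over all WT cells. In other fibroblast-like cells WT mice 1 and 2 gave 155 (130 to 183) and 129 (109 to 152). In Bmp subepithelial fibroblast-like cells they gave 116 (74.5 to 173) and 111 (68.6 to 169). The interval of mouse 2 in the former, and both intervals in the latter, hold the A20ZF7 level. Smooth muscle or myofibroblast-like cells had 35 and 38.4, a ratio of 1.10 (0.811 to 1.49).

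Over all stromal cells Egfr was 127 CPM in WT and 97.0 in A20ZF7, a ratio of 0.764 (0.711 to 0.821). The difference was smaller in several subsets. Stromal cells without a T cell UMI had 141 and 136 CPM, a ratio of 0.968 (0.887 to 1.05), and those with one had 87.6 and 70.1, a ratio of 0.801 (0.690 to 0.932). WT cells assigned to mice 1 and 2 had 108 and 106 CPM, nearer to the A20ZF7 value than the level over all WT cells. Within clusters 0, 6 and 9 of the other fibroblast-like cells the ratios were 0.901 (0.716 to 1.15), 0.946 (0.779 to 1.15) and 0.770 (0.437 to 1.26), each with an interval that holds 1. Without clusters 0 and 9 the stromal ratio was 0.894.

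Egfr was scarce in lymphocytes, with 2 WT and 23 A20ZF7 UMIs in T cell-like cells (0.951 and 2.20 CPM) and 7 and 7 in innate lymphoid-like cells (2.18 and 1.44). Epithelial-like cells had 20.3 and 16.3 CPM, a ratio of 0.806 (0.306 to 1.80). Free RNA had 31.3 and 35.6, above the level in either lymphocyte class and in epithelial-like cells. Egfr UMIs were found in 14.1% of WT and 10.5% of A20ZF7 stromal cells, 6.60% and 5.39% after thinning (0 and 1007 cells left out), against 0.218% and 1.77% of thinned plasma-like cells.

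Erbb2 and Erbb3 were highest in epithelial-like cells among the 14 groups, apart from the next group in both libraries. Erbb2 had 45.1 CPM there in WT and 37.3 in A20ZF7, a ratio of 0.827 with an interval of 0.455 to 1.41 that holds 1. In stromal cells Erbb2 had 9.36 and 7.84 CPM, a ratio of 0.837 (0.642 to 1.09), and its interval held 1 in all 8 groups with a ratio. Erbb3 had 113 CPM in WT epithelial-like cells (245 UMIs) and 28.0 in A20ZF7 (12 UMIs), a ratio of 0.248 (0.127 to 0.442). Within cluster 18 the Erbb3 values were 118 and 59.5, a ratio of 0.503 (0.248 to 0.915), and within the same cluster Erbb2 had 46.9 and 75.7, a ratio of 1.62 (0.852 to 2.84).

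The WT mice were unequal for Erbb3 in epithelial-like cells, with 105 CPM (75.3 to 143) in mouse 1 and 57.8 (35.3 to 89.3) in mouse 2. Without WT mouse 1 the ratio was 0.484, and the interval of mouse 2 overlapped that of A20ZF7 (14.5 to 48.9). Enteric glia-like cells, a cell type that depends on Erbb3 in development, had 4 Erbb3 UMIs in each library, 270 CPM in 14 WT and 187 in 28 A20ZF7 cells. T cell-like cells had 2.38 and 2.77 CPM of Erbb3, a ratio of 1.16 (0.446 to 3.85). Erbb4 was all but undetected, with at most 3 UMIs in T cell-like, stromal or epithelial-like cells of either library. Among the named groups, the highest levels of Areg thus lay in epithelial-like, ILC2-like and Treg-like cells, those of Egfr in fibroblast-like cells, and those of Erbb2 and Erbb3, glia aside, in epithelial-like cells.

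**Figure D3:**
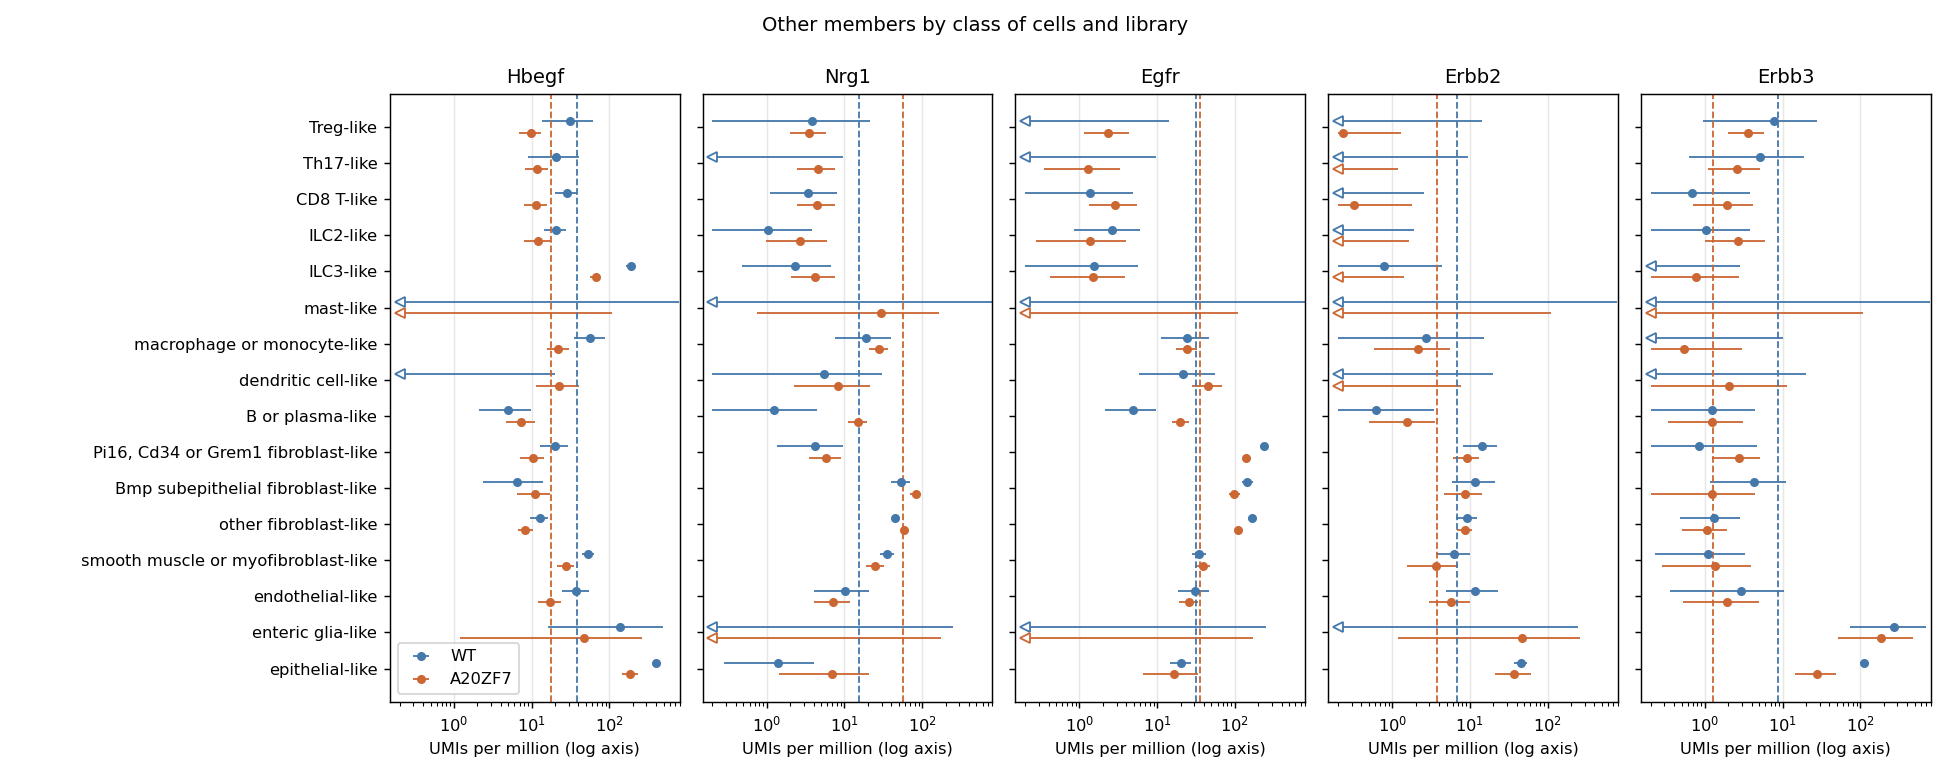
Levels (CPM, log axis) of Hbegf, Nrg1, Egfr, Erbb2 and Erbb3 in each group of cells in WT (blue) and A20ZF7 (orange), with 95% exact Poisson intervals cut at the axis limits; open triangles mark 0 UMIs and dashed lines the level in barcodes with 1 to 50 UMIs. Hbegf peaks in epithelial-like and ILC3-like cells, Nrg1 and Egfr in fibroblast-like cells, and Erbb2 and Erbb3 in epithelial-like cells, apart from enteric glia-like cells with few UMIs.

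**Figure D4:**
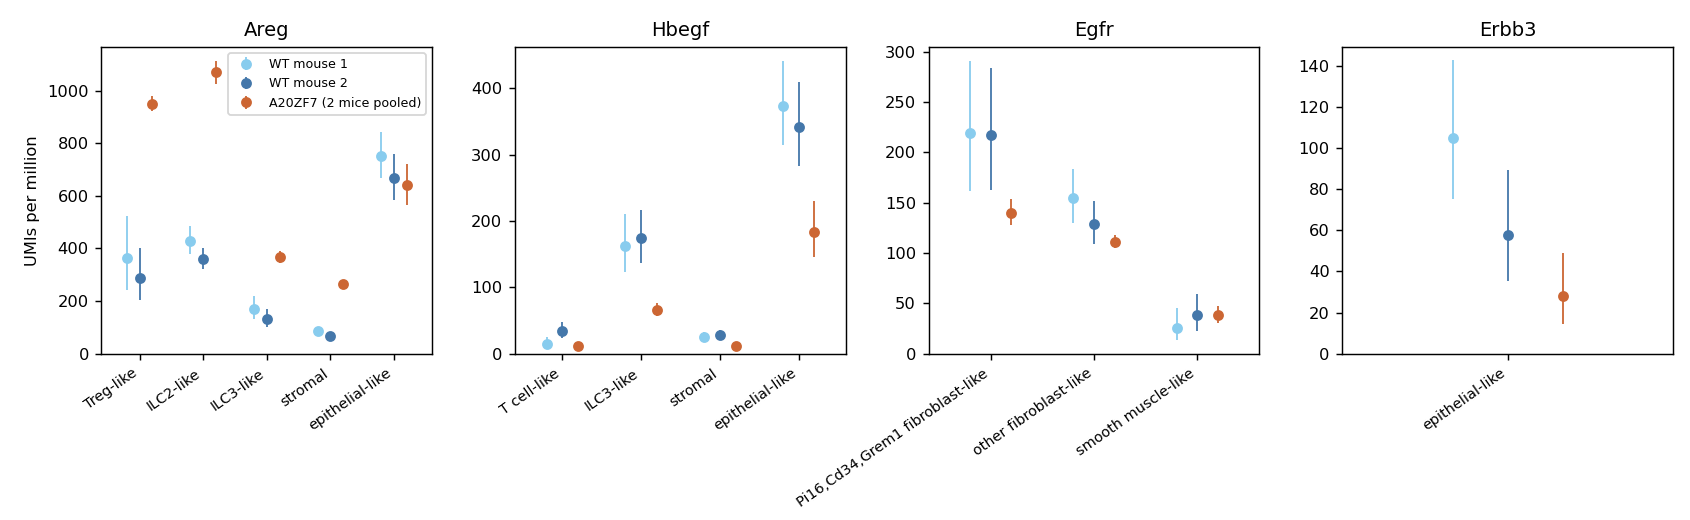
Levels (CPM) of Areg, Hbegf, Egfr and Erbb3 in selected groups, for cells assigned by hashtag to WT mouse 1 (light blue) or WT mouse 2 (dark blue) and for the A20ZF7 library with 2 mice pooled (orange), with 95% exact Poisson intervals. Areg in Treg-like, ILC2-like, ILC3-like and stromal cells is higher in A20ZF7 than in both WT mice, and Hbegf in ILC3-like cells is lower (66.3 against 162 and 174).

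The rest of the pathway was read from a list of 37 genes, the members included. In T cell-like cells 16 of the 37 were tested, 1 was at least 2-fold higher in A20ZF7 (Areg) and 1 at least 2-fold lower (Spry2), and the median ratio of 0.944 lay near the 1.03 of all genes tested. In innate lymphoid-like cells 17 were tested, with 3 higher (Areg, Adam17, Errfi1) and 1 lower (Hbegf), and a median of 1.08 against 1.01. In stromal cells 24 were tested, with 1 higher (Areg) and 1 lower (Errfi1), and a median of 0.973 against 0.975. In epithelial-like cells 16 were tested, with 3 higher (Adam17, Grb2, Cblb) and 2 lower (Hbegf, Erbb3), and a median of 1.16 against 1.26. Of the members, 1 of 1 tested in T cell-like, 2 of 2 in innate lymphoid-like, 1 of 3 in stromal and 2 of 4 in epithelial-like cells were past 2-fold, as were 1 of 1 in Treg-like and in ILC2-like cells. Of all genes tested, 3.68% in T cell-like, 3.63% in innate lymphoid-like, 7.08% in stromal and 43.6% in epithelial-like cells were past 2-fold. The shares were 3.69% in Treg-like and 5.32% in ILC2-like cells. Since the members were selected on such values, these counts describe them and support nothing.

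Among the sheddases that release the ligands, Adam17 had 34.2 CPM in WT and 58.8 in A20ZF7 T cell-like cells, a ratio of 1.72 (1.34 to 2.23). In innate lymphoid-like cells Adam17 had 22.8 and 57.2, a ratio of 2.51 (1.94 to 3.30). Its ratio was 1.36 (1.21 to 1.52) in stromal and 4.43 (2.35 to 8.31) in epithelial-like cells, so the gene was higher in A20ZF7 in all 4 classes. Epithelial-like cells, however, came from different clusters in the 2 libraries, with 43.6% of genes tested past 2-fold. Their T cell list summed to 164 CPM in WT and 1447 in A20ZF7. The part of these in the epithelial-like ratio was not tested. Plasma-like cells, too, had 11.7 and 33.7 CPM of Adam17, a ratio of 2.89 (1.76 to 4.98). Adam10 differed less, with 47.5 and 64.9 CPM in T cell-like cells, a ratio of 1.37 (1.11 to 1.70), and 71.0 and 73.3 in stromal cells, a ratio of 1.03 (0.943 to 1.13). Rhbdf2, which carries ADAM17 to the cell surface, had 17.5 and 25.7 CPM in stromal cells, a ratio of 1.46 (1.23 to 1.75).

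Of the adaptors that couple receptors to Ras and phospholipase C signalling, Grb2 had 115 CPM in WT and 181 in A20ZF7 T cell-like cells, a ratio of 1.58 (1.38 to 1.81). Its ratio was 1.57 (1.44 to 1.71) in stromal cells and 2.91 (2.07 to 4.06) in epithelial-like cells. The unequal clusters and T cell RNA of epithelial-like cells apply to this value too, and their part was not tested. In Treg-like cells Grb2 had 97.0 and 194 CPM, a ratio of 2.0 (1.35 to 3.11). Sos1, the Ras exchange factor, had 34.2 and 34.3 CPM in stromal cells, a ratio of 1.0 (0.878 to 1.15). Plcg1 had 60.9 and 48.4 in T cell-like cells, a ratio of 0.796 (0.654 to 0.974). The T cell, stromal and epithelial ratios of Grb2 all lay above those of Sos1. In plasma-like cells Grb2 had 30.7 and 91.8 CPM, a ratio of 2.99 (2.21 to 4.12), so this difference was also found outside the classes named.

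The inhibitors differed in both directions. Errfi1, a feedback inhibitor that binds the EGF receptor kinase, had 42.7 CPM in WT and 106 in A20ZF7 innate lymphoid-like cells, a ratio of 2.48 (2.05 to 3.01). In stromal cells Errfi1 had 169 and 74.9 CPM, a ratio of 0.444 (0.414 to 0.477) in the opposite direction. Spry2, a feedback inhibitor of receptor tyrosine kinase signalling, had 63.2 and 16.1 CPM in T cell-like cells, a ratio of 0.255 (0.202 to 0.323), and 65.1 and 70.3 in innate lymphoid-like cells, a ratio of 1.08 (0.907 to 1.29). The ubiquitin ligase gene Cblb had 543 and 510 CPM in T cell-like cells, a ratio of 0.939 (0.881 to 1.0), and Cbl 166 and 152, a ratio of 0.911 (0.811 to 1.03). Cblb had 59.9 and 268 CPM in epithelial-like cells, a ratio of 4.48 (3.46 to 5.81), in the class where T cell marker UMIs were also more frequent in A20ZF7. In ILC2-like cells Spry1 had 75.1 and 34.2 CPM, a ratio of 0.456 (0.340 to 0.606).

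Genes induced by ERK signalling differed in both directions. In T cell-like cells Dusp6, Egr1 and Phlda1 had ratios of 0.645 (0.504 to 0.833), 0.751 (0.652 to 0.868) and 0.766 (0.633 to 0.933). In plasma-like cells all 3 were higher in A20ZF7, with ratios of 3.35 (1.50 to 8.79), 1.90 (1.56 to 2.32) and 2.04 (1.39 to 3.08). Egr1 had 799 CPM in WT and 434 in A20ZF7 stromal cells, a ratio of 0.543 (0.527 to 0.560), and 414 and 210 in epithelial-like cells, a ratio of 0.507 (0.403 to 0.630). Dusp6, an ERK phosphatase, had 30 and 28.9 CPM in stromal cells, a ratio of 0.964 (0.836 to 1.11), and 41.7 and 19.4 in ILC2-like cells, a ratio of 0.464 (0.313 to 0.680). Phlda1 had 148 and 133 CPM in stromal cells, a ratio of 0.903 (0.846 to 0.963), and 86.6 and 35.1 in ILC2-like cells, a ratio of 0.406 (0.306 to 0.534). In epithelial-like cells Phlda1 had 30.9 and 53.7 CPM, a ratio of 1.74 (1.03 to 2.83).

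**Figure D5:**
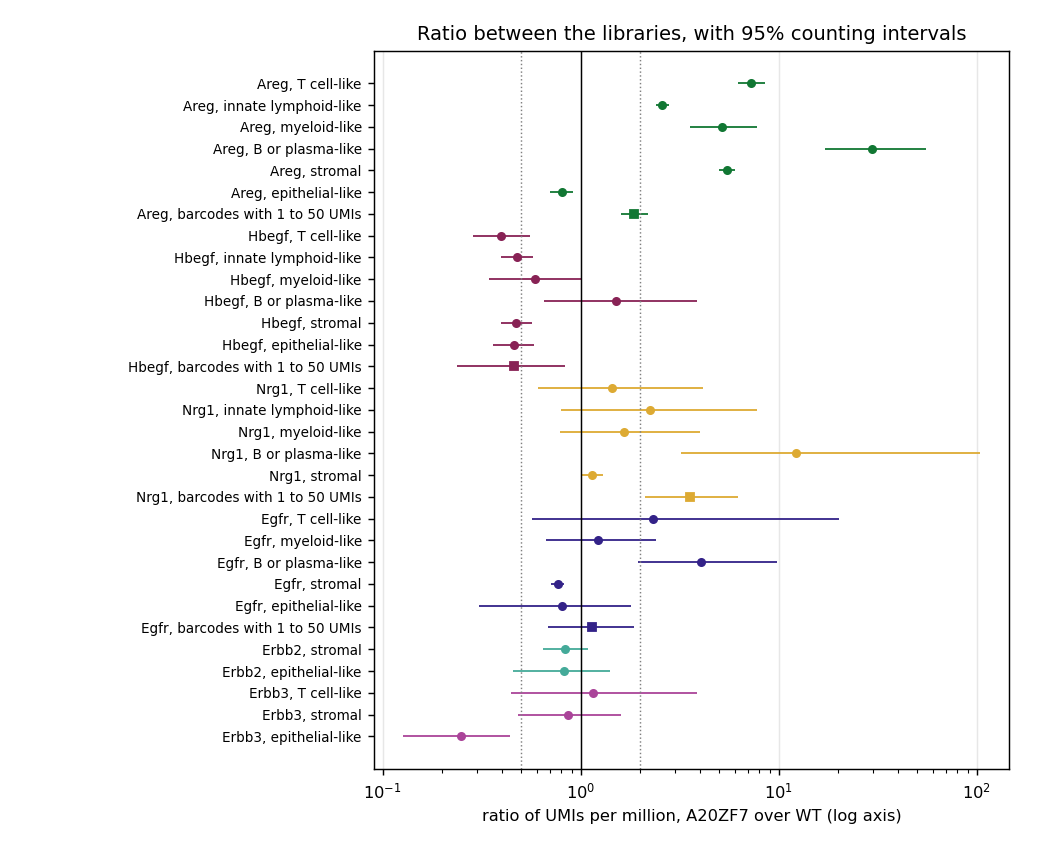
Ratio of levels (A20ZF7 over WT, log axis) for each member in each class where it had enough UMIs, with 95% exact conditional intervals; squares are barcodes with 1 to 50 UMIs, the solid line marks 1 and dotted lines mark 2-fold either way. Areg lies right of 2 in 5 classes and left of 1 in epithelial-like cells, while Hbegf lies at or left of 0.5 in T cell-like, innate lymphoid-like, stromal and epithelial-like cells.

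The genes whose levels followed each member most closely were found by Pearson's r of log2(CPM + 20) over 28 points, 14 groups of cells in 2 libraries, among 7034 genes. The points share library and depth, and r is given as a description across them. For Areg they were Vmp1 (0.827), Pkm (0.818) and Mxi1 (0.817), and for Hbegf Serpinb1a (0.86) and Espn (0.858). The closest genes to Nrg1 were Adgrl3 (0.945), Tnc (0.913) and Col27a1 (0.912), and to Egfr Bmp1 (0.987), Pcolce (0.982) and Dpt (0.981). For Erbb2 they were Anxa4 (0.962), Calml4 (0.944) and Abcd3 (0.923), and for Erbb3 Cda (0.986), H2-Q2 (0.983) and Ifi27l2b (0.983). The best r was thus higher for the receptors Egfr and Erbb3 than for Areg, whose best r was 0.827. Erbb3 had 113 CPM in WT and 28.0 in A20ZF7 epithelial-like cells and at most 7.76 in the other groups. Its r therefore rests mainly on the epithelial-like points and is not comparable with that of Areg.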

How the data were processed

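Gene expression libraries of WT and A20ZF7 SILP cells were deposited as unfiltered counts of UMIs per gene and barcode. The authors aligned reads to mm10 with Cell Ranger 7.1 (the headers of the count files name 8.0.0), with default settings. The gene lists differ (33696 WT and 32285 A20ZF7 IDs), so the 31950 shared IDs were used, matched by ID. A shared ID does not ensure that the same gene model was counted, and such a difference cannot be told apart from genotype here. A second ID that carries the Nrg1 symbol in the WT list had 0 UMIs. The deposited antibody counts of both genotypes were identical and held hashtags 7 and 8 of the WT mice (hashtags 9 and 10 had 4485 and 6888 UMIs), so only WT cells could be assigned to mice: 3483 to mouse 1, 4098 to mouse 2 and 7172 to neither. Barcodes in the files numbered 576003 and 612069, with 35289432 and 54587004 UMIs, against 60000 cells collected per genotype; 28848 and 52626 had at least 200 genes.

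Kept cells had 200 to 2500 genes, at most 15% mitochondrial UMIs and at least 675 (WT) or 396 (A20ZF7) UMIs, 10% of the 99th percentile, an order-of-magnitude rule. WT barcodes with both hashtags were removed as doublets. A20ZF7 barcodes could not be filtered in this way, so the libraries were filtered unequally, and the part of this in the ratios was not tested. Scrublet scores above 0.25 marked 231 WT and 548 A20ZF7 cells, which were left in and removed as an alternative. Cells were clustered in R 4.3.3 with Seurat 5.3.0 (cell cycle scores regressed, 1988 variable genes without the 37 pathway genes, Il17a, Il17f and Il22, 30 components, resolution 0.8). Clusters were named from marker lists by a mean log2 fold of at least 0.7, a limit set after the clusters were seen. A cluster with more markers of another class than of its own among its 10 leading genes, or whose best list was of no class used here (cluster 15, pancreatic acinar), stayed unnamed, and cluster 26 was split into mast-like and enteric glia-like cells by their marker UMIs.

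UMIs were summed per class and library in Python 3.11.15 (numpy 2.4.6, scipy 1.17.1, pandas 2.3.3). Cells are not replicates and each genotype had 1 library, so no test was made and no p-value is given. Genes were counted as tested in a class with a mean of at least 20 CPM that gives at least 10 UMIs in the shallower library, and as past 2-fold with a ratio of at least 2 or at most 0.5. A count of 0 was read as allowing up to 3 UMIs. Ratios and their intervals were tried on simulated Poisson counts made from the class sums. Such counts hold counting error only, so they say nothing of spread between mice or of mixed RNA. Members and lists were chosen with earlier results of these data known. Named beyond the members were, per role, the 3 list genes with the highest level in any class, every list gene past 2-fold in a class, and the 3 genes most like each member, of which 1 is not reported here. Spry1, Dusp6 and Phlda1 in ILC2-like cells and Grb2 in Treg-like cells are given as the genes behind small counts.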

Additional observations from a re-analysis of the deposited data

Results flagged for a closer look

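For 3 members, groups of cells differed in opposite directions between the libraries, and these differences between groups were not tested. The Areg ratio (A20ZF7 over WT) was 29.5 in plasma-like cells (13.9 without WT mouse 1) and 0.802 in epithelial-like cells (0.957 without WT mouse 1). The Nrg1 ratio was 12.2 in plasma-like cells, from 2 WT and 49 A20ZF7 UMIs (8.01 without WT mouse 1, and no WT UMI without mouse 2), and 0.704 in smooth muscle or myofibroblast-like cells. The Egfr ratio was 4.05 in plasma-like cells, from 8 and 65 UMIs (8.48 without WT mouse 2), and 0.598 in Pi16, Cd34 or Grem1 fibroblast-like cells. The plasma-like class joined cluster 14 (393 WT and 892 A20ZF7 cells) and cluster 16 (66 and 873). Within them the Egfr ratios were 1.60 (0.0831 to 94.1, from 1 and 2 UMIs) and 1.50 (0.687 to 3.88, from 7 and 63 UMIs). Both intervals hold 1. Nrg1 had 0 and 3 UMIs in cluster 14 and 2 and 46 in cluster 16, where its ratio was 3.83. The Areg ratio was 28.7 in cluster 14 and 22.7 in cluster 16. Beside the plasma-like values stand the marker sums in that class, 170 and 882 CPM for the T cell list and 677 and 1817 CPM for the fibroblast list, and a median of 3430 UMIs per WT and 1520 per A20ZF7 cell. The part of these, and of the unequal mix of clusters, in the ratios was not tested.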

How the results depend on the processing

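Under the alternatives 43 of the values compared moved beyond their counting interval, and 4, all of Nrg1 in stromal cells, changed direction. The other 68 did neither. These counts leave out the further ratios against single WT mice, among them the Hbegf ratios above 1 given below. Erbb2, with an interval that holds 1, also crossed 1 without WT mouse 2. Shares of UMIs cannot respond to another total for CPM, nor the A20ZF7 share to a left-out WT mouse. No paired analysis was possible because A20ZF7 cells could not be assigned to single mice. Depth limited mast-like cells (4654 WT UMIs) and Erbb3 in A20ZF7 epithelial-like cells (12 UMIs). The cause of each shift below was not tested.

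Classing cells by marker UMIs gave Areg ratios of 5.25 in T cell-like and a bound of 4.07 in mast cells (0 WT UMIs read as up to 3). It gave Hbegf 0.253 in T cells, and Egfr 0.842 and Nrg1 0.957 in stromal cells. T cells then held 43.4% (A20ZF7) and 7.41% (WT) of Areg UMIs. With marker UMIs and only the filters of the study (200 to 2500 genes) the values were 5.52, 3.95, 0.843 (Egfr), 0.957 (Nrg1), 42.4% and 7.83%. With marker UMIs and up to 5000 genes they were 5.25, 4.91, 0.247 (Hbegf), 0.845 (Egfr), 0.94 (Nrg1), 43.2% and 6.54%. With at least 1000 UMIs per cell, Areg was 5.83 in T cell-like and 3.18 in innate lymphoid-like cells, Hbegf 0.224, Egfr 0.673, and the Areg shares 24.6% and 3.40%. With free RNA taken off, Nrg1 was 0.843 and the A20ZF7 Areg share 47.2%, and with Scrublet doublets removed that share was 39.6%. Thinned to 500 UMIs, Areg was 2.29 in innate lymphoid-like cells, Erbb2 0.388 in epithelial-like cells, and the shares 44.9% and 9.83%.

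Alternatives chosen after seeing the data gave Areg ratios of 3.75 (T cell-like) and 2.98 (innate lymphoid-like) with groups weighted equally, 9.85 and 1.94 with the stromal level taken off, and 5.27 with the dividing cluster. Egfr was 0.894 without 2 fibroblast-like clusters mostly of 1 library. Leaving out either WT mouse also leaves out WT cells with no hashtag call. It gave Areg 7.84 to 8.85 in T cell-like and 2.05 to 2.45 in innate lymphoid-like cells, Hbegf 0.317 to 0.752, Nrg1 1.25 to 1.29, Egfr 0.896 to 0.918, Erbb2 0.861 to 1.01, Erbb3 0.266 to 0.484, and 6.88% to 8.06% of WT Areg UMIs in T cells. Against single WT mice, a further alternative chosen after seeing the data, Hbegf was 0.419 to 1.13 in Pi16, Cd34 or Grem1 fibroblast-like and 0.332 to 1.31 in endothelial-like cells. In mast-like cells leaving out WT mouse 2 gave a bound of 0.32, and without WT mouse 1 no WT cell was left. Hbegf in mast-like cells gave no value under any setting.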
